A study of Rattus norvegicus with 6 samples.

Results

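Sgk1, 1 of the serum- and glucocorticoid-regulated kinases, and its target, the ubiquitin ligase Nedd4l, form one arm of corticosteroid signalling. Sgk2 and Sgk3 are its relatives by family. Transcripts of these genes were compared in 3 spontaneously hypertensive rats (SHR), which become hypertensive as adults without intervention, and in 3 rats of the strain that the labels spell Wistar-Kyoko (WKY), taken here as the Wistar-Kyoto strain that usually serves as the normotensive comparison. The tissue was the rostral ventrolateral medulla (RVLM), a part of the brainstem that holds the neurons commanding sympathetic outflow to heart and vessels. Rats of both strains weighed 250 to 350 g, were kept in equal periods of light and dark and received no treatment, while their age and sex are not given in the sources used here. Each array held the RNA of 1 animal. All probe sets of the array table annotated with exactly 1 of the 4 symbols were taken, which gave 3 probe sets of 31099 in all, 1 each for the 3 genes Sgk1, Sgk2 and Nedd4l. No probe set carried the symbol or the Entrez identifier of Sgk3, so Sgk3 was not analysed here.

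Sgk1 transcription is induced by glucocorticoids acting through the glucocorticoid receptor and by aldosterone acting through the mineralocorticoid receptor, and also by serum and by osmotic stress. The Sgk proteins are serine/threonine kinases that need a phosphorylation by mTOR complex 2 and another by Pdpk1 before they are active. In kidney epithelium, active Sgk1 phosphorylates Nedd4l, which then binds 14-3-3 proteins and no longer marks the epithelial sodium channel for removal from the cell surface, so that sodium uptake increases. In brain, Sgk1 is known as a stress-responsive transcript of neurons and of oligodendrocytes.

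Sgk1 was read by a probe set that aligns to chr1:25652754-25658195 on the minus strand (Rnor5.0). Its 11 probes all matched 7 of the 8 transcripts listed for the set in the deposited annotation, among them 3 RefSeq transcripts, so the signal adds up transcript variants that begin at different starts. The starts are shown because the array cannot tell which of them supplied the signal. Of the 4 genes, 2 had start windows in the RefSeq table of build GRCr8, Nedd4l with 1 and Sgk1 with 3, each running from 250 bases before the start to 50 bases after it. The 3 Sgk1 windows are given 5′ to 3′ on the gene's strand with the TATA box letters TATAAA in capitals:
Sgk1 start window 1 (chr1:24807182-24807481, minus strand): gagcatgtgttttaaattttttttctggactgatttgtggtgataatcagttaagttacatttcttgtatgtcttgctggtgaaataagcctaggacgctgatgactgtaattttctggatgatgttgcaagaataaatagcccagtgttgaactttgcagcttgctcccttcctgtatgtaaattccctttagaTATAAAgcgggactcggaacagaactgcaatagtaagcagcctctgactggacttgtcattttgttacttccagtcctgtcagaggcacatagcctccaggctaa
Sgk1 start window 2 (chr1:24805521-24805820, minus strand): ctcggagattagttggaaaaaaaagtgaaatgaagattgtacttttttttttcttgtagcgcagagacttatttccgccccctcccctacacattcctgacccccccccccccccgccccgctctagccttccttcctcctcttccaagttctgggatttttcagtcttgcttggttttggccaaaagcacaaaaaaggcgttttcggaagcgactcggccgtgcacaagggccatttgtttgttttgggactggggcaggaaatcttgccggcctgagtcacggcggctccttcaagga
Sgk1 start window 3 (chr1:24804782-24805081, minus strand): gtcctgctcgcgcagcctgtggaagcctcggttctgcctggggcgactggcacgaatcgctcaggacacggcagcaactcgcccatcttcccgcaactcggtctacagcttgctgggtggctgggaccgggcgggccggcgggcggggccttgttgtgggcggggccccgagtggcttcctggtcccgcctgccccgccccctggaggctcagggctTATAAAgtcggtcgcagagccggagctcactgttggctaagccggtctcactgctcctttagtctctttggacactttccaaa
The windows differed in composition, with 40.7% of bases G or C in the first, 51.7% in the second and 66.0% in the third. The letters TATAAA, searched on both strands, occurred 55 bases before the start in window 1 and 33 bases before it in window 3, and not in window 2. Of 33469 promoter windows of the same length in the table, 14.2% held them. The steroid receptor element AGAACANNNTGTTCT and its single arm AGAACA, also searched on both strands, were in none of the 3 windows. The single arm was present in 20.7% and the full element in 0.0149% of all windows. These are matches of letters within 300 bases, and elements farther from the starts were not searched. The Nedd4l window, with 81.7% G or C, held none of the 3 motifs.

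The Sgk1 signal was higher in every SHR animal than in any WKY animal. The log2 signal was 11.55, 11.57 and 11.48 in SHR replicates 1, 2 and 3, against 10.71, 10.57 and 10.56 in WKY replicates 1, 2 and 3. On the linear scale of the array these were signals of 2988, 3031 and 2848 in SHR and of 1671, 1520 and 1514 in WKY. The lowest SHR animal lay 0.77 above the highest WKY animal on the log2 scale, and animals of one strain lay within 0.09 (SHR) and 0.14 (WKY) of each other. The strain means were 11.53 ± 0.05 for SHR and 10.61 ± 0.08 for WKY (SD over 3 animals each), a log2 difference of 0.92 ± 0.07 (SE), or 1.89-fold. The probe set was called Present, that is detected, on all 6 arrays. This difference is the reason the gene was singled out, so it is given as a description without a test. RNA came from whole tissue pieces, where more cells of a type and more RNA per cell cannot be told apart.

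**Figure D1:**
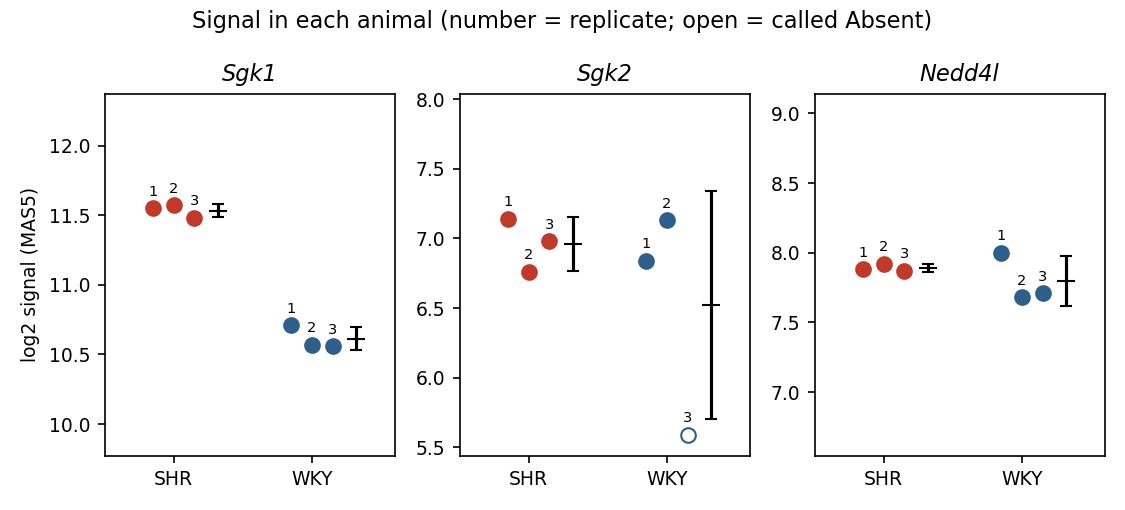
Log2 signal of the Sgk1, Sgk2 and Nedd4l probe sets in each animal, SHR in red and WKY in blue, with replicate numbers above the points, open points where the set was called Absent, and the mean ± SD (n = 3) beside each strain. The 3 panels span the same height in log2 units; Sgk1 points lie near 11.5 in SHR and near 10.6 in WKY, while the strains overlap for Sgk2 and Nedd4l.

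The Sgk1 signal varied little between animals of a strain. Its pooled SD within strains was 0.07 on the log2 scale, where the median of the 20790 kept probe sets, those with a Present call on 3 or more arrays, was 0.17 and 9.4% of sets had a smaller one. Among kept probe sets the Sgk1 difference took rank 198 when rises were ordered by size. With differences of either sign it took rank 335 by size and rank 9 by size relative to the standard error. Because Sgk1 was singled out from this contrast, the ranks are given as a description only. The Sgk1 difference lay between 0.89 and 0.96 over the 14 alternative settings, which included leaving out each animal in turn.

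**Figure D2:**
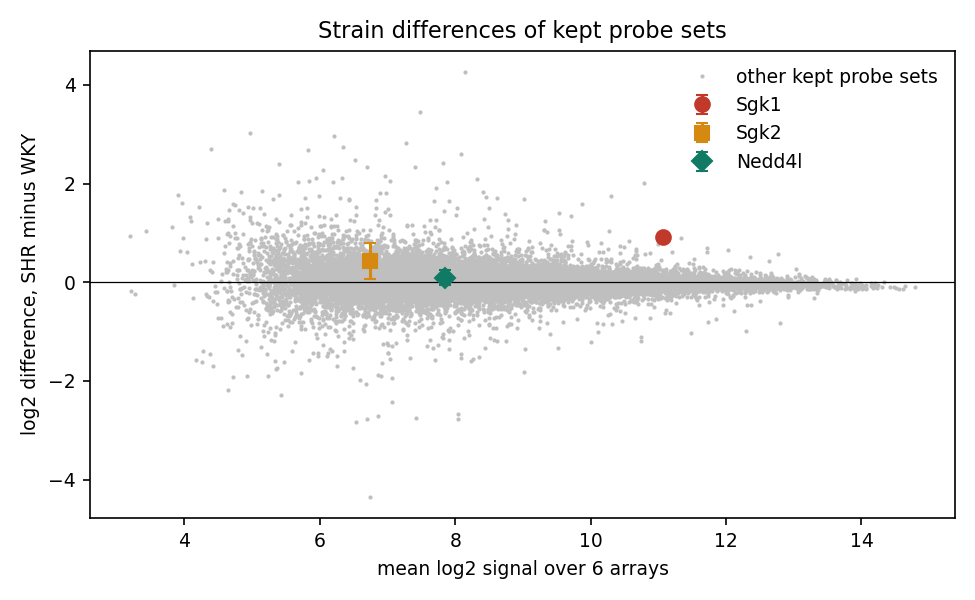
Log2 difference, SHR minus WKY, against the mean log2 signal over 6 arrays for each kept probe set (grey), with Sgk1, Sgk2 and Nedd4l marked and their standard errors as bars. Sgk1, at 0.92, sits at the upper edge of the probe sets of like signal, and Sgk2 (0.44) and Nedd4l (0.09) sit within it.

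Sgk2, a related kinase known mainly from liver, kidney and pancreas, was called Present on 5 of the 6 arrays. Its probe set aligns to chr3:165581411-165581923 on the plus strand (Rnor5.0). The log2 signal was 7.14, 6.76 and 6.98 in SHR replicates 1, 2 and 3, against 6.84, 7.13 and 5.59 in WKY replicates 1, 2 and 3. WKY replicate 3 stood below the other 5 animals and was the 1 array on which the set was called Absent, and the remaining WKY values lay within the SHR range. The strain means were 6.96 ± 0.19 for SHR and 6.52 ± 0.82 for WKY (SD over 3 animals each), a log2 difference of 0.44 ± 0.37 (SE). Without WKY replicate 3 the difference was -0.03 ± 0.25 (SE), so the sign rested on that array. The pooled within-strain SD of 0.60 exceeded that of 96.4% of kept probe sets.

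Nedd4l, the ligase that Sgk1 phosphorylates, was detected on all 6 arrays and the strains overlapped. Its probe set aligns to chr18:59920186-59920553 on the plus strand (Rnor5.0). The deposited annotation places it in a quantitative trait locus for renal function and flags 1 predicted transcript that its probes may also bind. On the linear scale the signal was 235, 243 and 234 in SHR replicates 1, 2 and 3, against 257, 205 and 209 in WKY replicates 1, 2 and 3. The SHR values lay inside the WKY range. On the log2 scale the strain means were 7.89 ± 0.03 for SHR and 7.80 ± 0.18 for WKY (SD over 3 animals each), a log2 difference of 0.09 ± 0.15 (SE), and it lay between 0.03 and 0.20 over the alternative settings. A further 2 probe sets with no gene symbol align to the same strand within 5 kb downstream, and differed by 0.45 ± 0.35 and -0.07 ± 0.13 (SE). Neither was called by limma (adjusted p = 0.761 and 0.909).

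Of the 3 probe sets, 1, that of Sgk1, had strains that did not overlap, higher in SHR, where 7.26% of all kept probe sets did. The same 1 passed the threshold of limma, a linear model with moderated variances, at an adjusted p under 0.05, where 0.924% of all kept probe sets passed in either direction and 0.524% as higher in SHR. Since Sgk1 was chosen from this contrast, nothing is read from these shares. Around Sgk1, 3 other kept probe sets lay within 1 Mb on either side. Their differences ran from -0.29 to 0.10, limma called 0 of them, and 0 had an unadjusted p under 0.05. Within 1 Mb of Sgk2 and Nedd4l, limma called 0 of 26 and 0 of 22 kept probe sets. An unadjusted p under 0.05 was reached by 0 of the 26 and 4 of the 22, against 9.52% of all kept probe sets.

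The genes that act before the kinases held no called member. Of 16 measured receptors, steroid-converting enzymes and kinases upstream of the Sgk proteins, limma called 0, where 0.902% of all 10418 genes were called, and 2 had an unadjusted p under 0.05, as did 9.6% of all genes. Pik3ca, a catalytic subunit of phosphoinositide 3-kinase, had log2 signals of 11.24, 11.31 and 11.30 in SHR and 11.05, 11.10 and 11.01 in WKY, a difference of 0.23 ± 0.06 (SE; limma adjusted p = 0.171). Pik3r1, a regulatory subunit of the same enzyme, had 8.10, 8.47 and 8.43 in SHR and 9.02, 8.97 and 8.57 in WKY, a difference of -0.52 ± 0.16 (SE; adjusted p = 0.256). The strains did not overlap for either subunit, as for 6.92% of all genes as higher and 8.35% as lower in SHR, and the signs were opposite.

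The steroid receptors, named here after their values were seen, were detected on all 6 arrays. A further probe set of the glucocorticoid receptor gene was Present on 0 of the 6 arrays and was not kept. The glucocorticoid receptor gene Nr3c1 averaged 10.25 ± 0.16 for SHR and 10.39 ± 0.09 for WKY (SD over 3 animals each), a log2 difference of -0.14 ± 0.10 (SE; limma adjusted p = 0.723). The mineralocorticoid receptor gene Nr3c2 averaged 9.42 ± 0.08 in SHR and 9.37 ± 0.01 in WKY, a difference of 0.05 ± 0.09 (adjusted p = 0.909). Hsd11b1, which regenerates active glucocorticoid inside cells, differed by 0.04 ± 0.08 (adjusted p = 0.926). Hsd11b2, which inactivates glucocorticoid and so lets aldosterone reach the mineralocorticoid receptor, was called Absent on all 6 arrays.

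Transcripts of other genes known to be induced by corticosteroids were mostly at higher signals in SHR. Of 19 measured genes of this list, Sgk1 not included, limma called 2, of which 1 was higher and 1 lower in SHR, against 0.442% and 0.461% of all genes. Differences were above 0 for 16 of the 19, with a median of 0.22, whereas 48.6% of all genes were above 0 with a median of 0.00. An unadjusted p under 0.05 was reached by 8 of the 19 (6 higher and 2 lower), and by 9.6% of all genes. The list was drawn up with the Sgk1 and Dusp1 results known, so its direction is not independent evidence.

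Ddit4, an inhibitor of mTOR signalling induced by glucocorticoids, had log2 signals of 10.94, 10.55 and 10.67 in SHR, against 10.21, 10.16 and 10.03 in WKY. It was 1.50-fold higher in SHR, at a log2 difference of 0.59 ± 0.10 (SE; limma adjusted p = 0.0303), a call lost with no variance trend (0.171) and in 4 of the 6 fits that left out an animal, namely SHR replicate 3 (0.0752) and WKY replicates 1 to 3 (0.106, 0.142 and 0.148). Dusp1, a phosphatase that switches off MAP kinases, ran the other way, with 9.94, 9.53 and 9.56 in SHR and 10.32, 10.60 and 10.60 in WKY. It was 1.78-fold lower in SHR (log2 difference -0.83 ± 0.12, SE; adjusted p = 0.0128). That call was lost on leaving out SHR replicate 3 (adjusted p = 0.0521), WKY replicate 2 (0.105) or WKY replicate 3 (0.0779), with no variance trend (0.125) and with the median of its probe sets (0.202).

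Other members, named after their values were seen, did not pass. Klf9, a transcription factor induced by glucocorticoids, differed by 0.35 ± 0.09 (SE; limma adjusted p = 0.141) with strains that did not overlap. Tsc22d3, which encodes the glucocorticoid-induced leucine zipper, differed by 0.20 ± 0.06 (adjusted p = 0.259), also without overlap. Fkbp5, a co-chaperone of the glucocorticoid receptor and one of its best known targets, differed by 0.11 ± 0.14 (adjusted p = 0.874) with strains that overlapped. In all, strains did not overlap for 6 of the 19 genes as higher and 2 as lower in SHR, where 6.92% and 8.35% of all genes did so.

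The SHR animals differed among themselves in these genes. The mean log2 signal over the 19 genes was 10.00, 9.58 and 9.74 in SHR replicates 1, 2 and 3, against 9.65, 9.57 and 9.54 in WKY replicates 1, 2 and 3. SHR replicate 1 was the highest of its strain for 14 of the 19, and SHR replicate 2 lay within the WKY range of this mean. Without SHR replicate 1 the list's differences were above 0 for 14 of 19 with a median of 0.14.

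**Figure D3:**
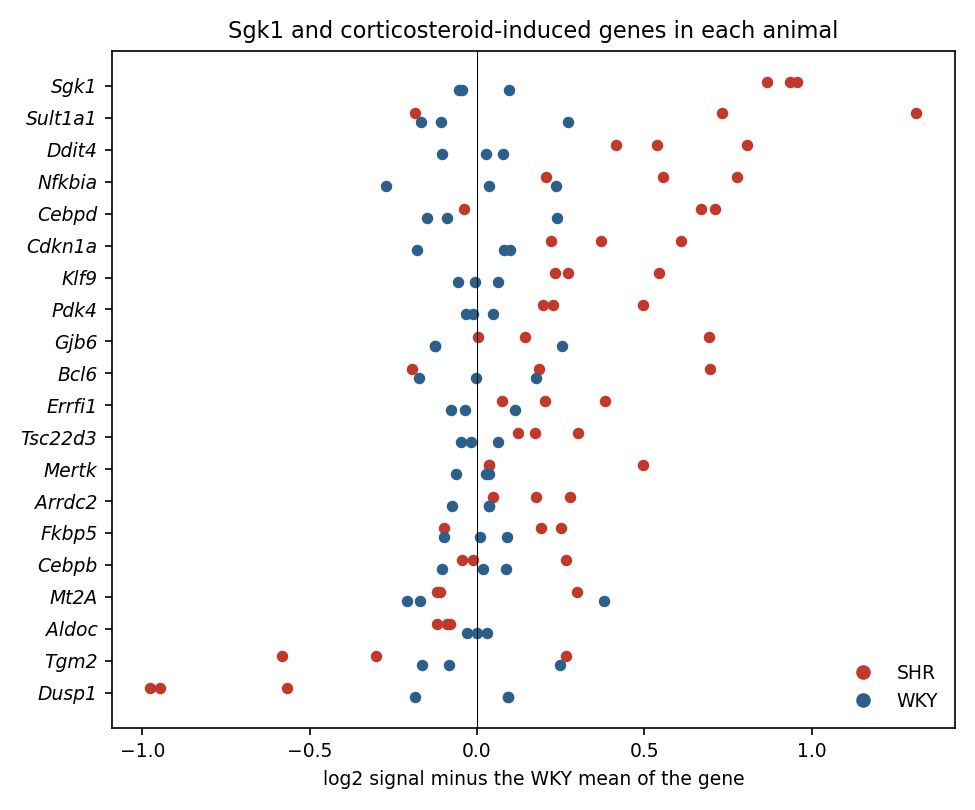
Log2 signal of Sgk1 and the 19 measured corticosteroid-induced genes in each SHR (red) and WKY (blue) animal, minus the WKY mean of that gene, ordered by strain difference below Sgk1. The mean of SHR lies to the right of 0 for 16 of the 19 genes, Dusp1 has its SHR points to the left, and the 3 Sgk1 points of SHR lie within 0.09 of each other.

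Partners and relatives of Nedd4l held no called member. Of 17 measured genes for other NEDD4-family ligases, their adaptors, other ubiquitin enzymes and 14-3-3 proteins, limma called 0, where 0.902% of all genes were called. An unadjusted p under 0.05 was reached by 0 of them, and by 9.6% of all genes. The median log2 difference of the list was -0.04. Usp2, a deubiquitylase that can remove ubiquitin from the epithelial sodium channel, differed by 0.41 ± 0.22 (SE; limma adjusted p = 0.635), with 8.16, 7.37 and 7.65 in SHR and 7.53, 7.26 and 7.17 in WKY. The 14-3-3 gene Ywhae differed by -0.11 ± 0.06 (adjusted p = 0.648). Nedd4, the closest relative of Nedd4l, was named after its values were seen. It had 5 kept probe sets, whose differences ran from -0.19 to 0.79, and limma called 0 of them (lowest adjusted p = 0.0766; 1 set with an unadjusted p under 0.05).

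The epithelial sodium channel genes, named here after their values were seen, were barely detected, which limits what can be said of this target of Nedd4l in the tissue. Both probe sets of the alpha subunit gene Scnn1a were Absent on all 6 arrays. The beta subunit gene Scnn1b was Present on 0 of 3 SHR arrays and 2 of 3 WKY arrays and was not kept. For the gamma subunit gene Scnn1g, 1 of its probe sets was Present on 2 of 3 SHR arrays and 3 of 3 WKY arrays, at log2 signals of 5.84 to 6.53 in SHR and 5.74 to 6.64 in WKY, and the strains overlapped.

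Of 21 measured channels, transporters and kinase substrates, limma called 0 and 3 had an unadjusted p under 0.05, against 0.902% and 9.6% of all genes. Ndrg1, whose protein is a well-known substrate of Sgk1, had log2 signals of 12.48, 12.32 and 12.36 in SHR and 12.58, 12.64 and 12.53 in WKY, a difference of -0.20 ± 0.06 (SE; limma adjusted p = 0.246). Another kept probe set of Ndrg1 differed by -0.33 ± 0.19 (SE; limma adjusted p = 0.638 among all kept probe sets). In that set the strains overlapped, at 8.89 to 9.68 in SHR and 9.46 to 9.86 in WKY. The voltage-gated sodium channel gene Scn8a differed by 0.57 ± 0.20 (adjusted p = 0.361) and was Present on 3 of 3 SHR arrays and 1 of 3 WKY arrays. It met the detection filter only through the strain where it was high, so nothing is read from its p or its lack of overlap. Neither strain difference passed the threshold. In the probe set that represents each of the 2 genes the strains did not overlap, as for 8.35% of all genes as lower and 6.92% as higher in SHR.

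Of 18 related kinases of the AGC family limma called 0, and 2 had an unadjusted p under 0.05, against 0.902% and 9.6% of all genes. These were Rps6ka1 and Rps6ka3, ribosomal S6 kinases downstream of ERK, at -0.61 ± 0.18 and 0.50 ± 0.21 (SE; limma adjusted p = 0.228 and 0.489). Of 7 osmotic stress genes, measured because Sgk1 is also induced by hypertonicity, limma called 0, and an unadjusted p under 0.05 was reached by 1, where the same shares of all genes apply. The list was led by the myo-inositol transporter gene Slc5a3 (0.29 ± 0.12; adjusted p = 0.487) and the taurine transporter gene Slc6a6 (0.45 ± 0.21; adjusted p = 0.546).

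**Figure D4:**
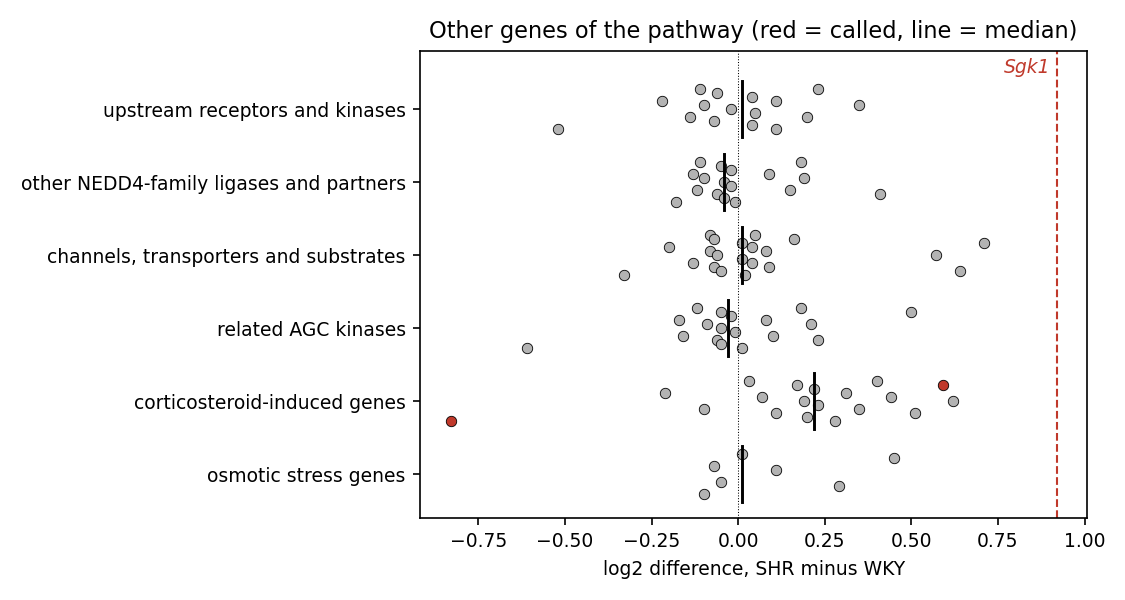
Log2 difference, SHR minus WKY, of each measured gene in 6 lists around the Sgk kinases and Nedd4l, with called genes in red, list medians as black lines and the Sgk1 difference of 0.92 as a dashed line. The medians lie between -0.04 and 0.22, and the 2 called genes are both in the corticosteroid-induced list.

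The arrays were alike in overall signal, with 64.8% to 67.0% of probe sets Present, and the genes Th, Dbh and Pnmt of catecholamine neurons of this region were Present on all 6 arrays, while Phox2a, a transcription factor gene of such neurons named after its values were seen, was Present on 0 of 3 SHR arrays and 1 of 3 WKY arrays. Th, which encodes the first enzyme of catecholamine synthesis, varied widely between animals, with log2 signals of 9.55, 9.96 and 10.99 in SHR replicates 1, 2 and 3, against 9.50, 8.84 and 11.64 in WKY replicates 1, 2 and 3. Marker genes of cell types to be expected in a tissue piece differed between the strains by -0.26 to 0.21 in their list means, and 7 of 8 lists had overlapping mean signals. These means can hide members that ran opposite ways, as in the blood list, whose 3 genes, named after their values were seen, all had an unadjusted p under 0.05. S100a9, a calcium-binding protein gene of neutrophils, differed by 1.70 ± 0.35 (SE; limma adjusted p = 0.0662) and was Present on 3 of 3 SHR arrays and 0 of 3 WKY arrays. It passed the detection filter only through the strain where it was high, so nothing is read from its p. The haem synthesis gene Alas2 and the haemoglobin gene Hbb ran the other way, at -0.70 ± 0.19 and -0.38 ± 0.16 (adjusted p = 0.192 and 0.484). The list without overlap was that of 14 oligodendrocyte genes, whose mean log2 signal was 12.13, 12.23 and 12.25 in SHR replicates 1, 2 and 3 and 12.35, 12.41 and 12.27 in WKY replicates 1, 2 and 3. The difference of these means was -0.14, 13 of the 14 differences were below 0, and limma called 0 of the genes, with 6 at an unadjusted p under 0.05, where 9.6% of all genes reached one. Each gene is represented there by 1 probe set, and another set of Mobp, a myelin protein gene, was called among all kept probe sets (-0.99 ± 0.07; limma adjusted p = 0.000111). That set had log2 signals of 11.88, 11.73 and 11.77 in SHR replicates 1, 2 and 3, against 12.82, 12.88 and 12.66 in WKY replicates 1, 2 and 3. The other 2 sets of Mobp differed by -0.17 ± 0.05 and -0.12 ± 0.09 and were not called (adjusted p = 0.271 and 0.734), so the sets of this gene disagree in size. Markers of endothelial and mural cells had a mean of 9.35, 8.77 and 9.09 in SHR and 9.33, 9.37 and 9.27 in WKY, with SHR replicate 2 lowest. Their member Vwf, the von Willebrand factor gene, named after its values were seen, differed by -0.85 ± 0.19 (SE; adjusted p = 0.1). The choroid plexus gene Ttr and the astrocyte gene Gfap, also named after their values were seen, stood apart in SHR replicate 2 and were not called. Ttr had log2 signals of 6.51, 9.38 and 6.83 in SHR and 6.59, 6.62 and 6.60 in WKY. For Gfap they were 12.65, 11.26 and 12.50 in SHR and 12.75, 12.60 and 12.45 in WKY. The part of these marker differences in the Sgk1 result was not tested.

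Genes whose signals followed Sgk1 most closely over the 6 arrays were found by Pearson's r, as a description without a p. The 5 highest belonged to Lin7c, a scaffold protein of cell junctions and synapses (r = 0.997), Larp6, an RNA-binding protein (0.992), Adpgk, an ADP-dependent glucokinase (0.989), Ivns1abp, a kelch-repeat protein (0.989), and Trpt1, a tRNA-modifying enzyme (0.988). Since the Sgk1 values differ mainly between the strains, genes found in this way are higher in SHR by construction, and their differences, from 0.32 for Trpt1 to 1.75 for Adpgk, are given as a description only. An r above 0.9 was reached by 173 of 10417 genes. After the mean of each strain was subtracted, so that only differences among animals of a strain counted, the 5 highest were Sfpq, a splicing factor (0.998), the Ras-family gene Mras (0.990), the transcription factor gene Stat4 (0.990), the thiamine transporter gene Slc19a2 (0.990) and the deubiquitylase gene Otud7b (0.990). With the strain means removed, r rests on Sgk1 differences among animals with an SD of 0.07, and 159 of 10417 genes had an r above 0.9, so no relation to Sgk1 is read from these names.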

How the data were processed

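RNA of 6 RVLM samples, 1 per animal, was hybridised to Affymetrix rat expression arrays, whose probes lie toward the 3' end of each transcript. Signals were made with MAS5 (version not given), per the submitters' processing notes. The authors deposited log2 signals with detection calls, and linear signal intensity values. The log2 table equalled the log2 of the linear values floored at 1 (largest difference 8.2e-06). The trimmed mean of linear intensity was 500.14 on each array, so the deposited arrays had been scaled to each other. A sequence difference between a strain and a probe can also change a signal. Symbols came from the deposited table, updated through Entrez identifiers with a RefSeq table of GRCr8, and promoter windows came from RefSeq (GRCr8).

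Controls (57 probe sets) were left out, and probe sets called Present on at least 3 of 6 arrays were kept. Strains were compared with limma 3.58.1 in R 4.3.3 (lmFit and eBayes with a variance trend, strain as the only factor), with Benjamini-Hochberg adjustment over all 20790 kept probe sets, or over 10418 genes, each represented by its kept probe set with the highest mean. Calls are at an adjusted p under 0.05, and differences are SHR minus WKY. The fit was run on simulated data with independent normal noise of its own fitted variances. That run checks the computation and not the calls made here. Members and lists were chosen with earlier results of these data known. Named genes were the members, the 2 genes of smallest p and any called gene of each list, and the 5 genes most like Sgk1. Others are marked as named after their values were seen. The number of animals limits the precision. Alternatives were other normalizations, pseudocounts of 16 and 64, other detection filters, no variance trend, the median of a gene's probe sets, a replicate block and leaving out each animal.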

Additional observations from a re-analysis of the deposited data

How the results depend on the processing

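The Sgk1 difference kept its sign and size under each alternative (0.89 to 0.96 on the log2 scale). That of Nedd4l stayed between 0.03 and 0.20. That of Sgk2 ran from -0.03 without WKY replicate 3 to 0.74 without WKY replicate 2, and Sgk2 had no value when Present calls on all 6 arrays were required. The numbers of calls moved more. Without a variance trend, limma called 63 probe sets and 31 genes in place of 192 and 94. With 1 animal left out it called 78 to 205 probe sets and 27 to 90 genes, and the low counts came from leaving out WKY replicate 1, 2 or 3 (81, 81 and 78 probe sets). Leaving out SHR replicate 1, 2 or 3 gave 205, 137 and 201. The cause was not tested. Of the corticosteroid-induced genes, 2 of 19 were called in the main fit and 3 of 24 with no detection filter. Limma called 0 without a variance trend, 1 with the median of a gene's probe sets, and 0 to 3 with 1 animal left out. Limma called 0 genes of the other 5 lists in each setting. Replicate numbers are shared by the strains, and whether they pair animals cannot be settled with 3 animals a strain. Same-numbered animals correlated at 0.08, -0.01 and 0.07 in their deviations from the strain means, and differently numbered animals at -0.12 to 0.07. With the replicate block, 196 probe sets and 110 genes were called, and the Sgk1 difference had an SE of 0.07.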
